A study of Homo sapiens with 8 samples.

Results

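The p53 target genes described here are 31 genes that the transcription factor p53 is known to switch on, followed in cells that lack p53. Members were the probe sets of the deposited table that the platform annotation assigns to exactly 1 gene, that gene being on the list. This gave 82 of 41091 such probe sets, for 29 of 19775 genes. BTG2 and FDXR were not analysed here, as the annotation gives no probe set to either alone. The cells are Saos-2, a long-established line from a human osteosarcoma, and all 8 samples carry the label p53 null. The groups were untreated cells (3 arrays, replicates 1, 2 and 3), cells given a compound labelled Prima for 6 h (3 arrays, replicates 1, 2 and 3) and cells given it for 12 h (2 arrays, replicates 1 and 3). The series asked what the compound does to the transcriptome where p53 is missing. The sources used here give neither its dose nor a vehicle for the controls, and nothing says that replicates were separate cultures, so p-values measure only the spread between these samples.

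Damaged or stressed cells stabilise p53, which binds DNA as a tetramer and raises genes for cell cycle arrest, DNA repair, metabolism and death. Some of these genes feed back on p53 itself, MDM2 above all, whose product marks p53 for degradation. The same genes also answer to other factors, among them the relatives p63 and p73, so they can be transcribed without p53. Compounds of the PRIMA family are known for refolding mutant p53, which Saos-2 cells do not make.

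The DNA element that p53 recognises is a pair of 10-base decamers, each a near-palindrome around a C, a pair of A or T bases and a G. The p53 decamer consensus was searched in the RefSeq windows from 250 bases before to 50 bases after each gene's start (GRCh38.p14). The consensus is its own reverse complement, so 1 search covers both strands, and overlaps with other motifs were not examined. Of the 26 members with a window, 6 held a decamer (23.1%), against 8.06% of 27305 genes. TNFRSF10B, TP53INP1, RRM2B, PHLDA3 and GADD45A had no entry. Those of AEN, DDB2, FAS, SESN1 and PLK2 are printed because they are stretches of the kind that p53, missing here, recognises (the sixth, FDXR, was not measured). Decamers are in capitals, and each line runs 5′ to 3′ on the gene's strand.
AEN: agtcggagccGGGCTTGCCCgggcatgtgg
DDB2: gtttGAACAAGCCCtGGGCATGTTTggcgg
FAS: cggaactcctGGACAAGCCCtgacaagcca
SESN1: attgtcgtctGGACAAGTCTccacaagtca
PLK2: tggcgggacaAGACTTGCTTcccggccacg

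They lie at chr15:88621296-88621325 (AEN, plus strand), chr11:47214975-47215004 (DDB2, plus), chr10:88991299-88991328 (FAS, plus), chr6:109009018-109009047 (SESN1, minus) and chr5:58460199-58460228 (PLK2, minus). DDB2 was the member with a pair of exact decamers, a single base apart. Of the genes searched, 0.0366% held an exact pair with a spacer of at most 13 bases. Near matches beside a decamer were not counted and stay in lower case. The DDB2 pair began 6 bases into the transcript, those of AEN, SESN1, FAS and PLK2 34, 49, 122 and 132 bases before a start (written -34, -49, -122 and -132). FAS and SESN1 have 3 windows each, and the match is in 1 of them. PLK2 has 1 window, and the 250 bases before its start (chr5:58460087-58460336, minus strand) show the setting of its decamer.
PLK2: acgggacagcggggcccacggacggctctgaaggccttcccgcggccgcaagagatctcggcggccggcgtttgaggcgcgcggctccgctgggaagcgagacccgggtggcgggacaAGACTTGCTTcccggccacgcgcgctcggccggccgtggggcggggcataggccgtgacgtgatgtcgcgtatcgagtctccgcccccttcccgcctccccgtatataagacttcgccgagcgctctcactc
The windows of CDKN1A and MDM2 held no exact decamer, which says only that these letters are not in them. A match is a description of the sequence and was not read as a site in use.

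Values below are MAS5 signals, a linear intensity scaled to the same trimmed mean on every array. This scaling does not make levels of different genes comparable. Each gene is represented by its brightest probe set. Both replicate 2 arrays stood apart: their median signals were 50.9 and 47.5 against 14.2 to 25 on the other 6, and no 12 h array has that number. RNA integrity was read from ACTB, whose 3′ probe set exceeded its 5′ set 2.29-fold on 12 h replicate 1, 1.73-fold on 6 h replicate 1 and 1.12- to 1.38-fold elsewhere. The same ratio of GAPDH lay between 0.927 and 1.04 on all 8 arrays. All 9 measured osteoblast-lineage markers passed the filter on low signal described below, with RUNX2 at 1411 to 2350. Of epithelial, blood and endothelial markers 1 of 7, 2 of 5 and 1 of 5 passed. The p53 null label was not checked here.

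Many p53 target genes were transcribed in untreated Saos-2 cells. GADD45A, a growth arrest and repair factor, read 1523, 1327 and 1318 on untreated replicates 1, 2 and 3. PLK2, a stress-responsive kinase, read 1259, 1103 and 1015. CCNG1, cyclin G1, which directs a phosphatase to MDM2, read 1176, 990.5 and 1050. The 3 untreated arrays of each of these genes lay close together. MDM2 read 570.7, 382.5 and 436.7, and its relative MDM4, which blunts p53 activity, 272.6, 101.2 and 235.2. PPM1D, the phosphatase that ends p53 signalling, read 622.9, 482.3 and 777.2. CDKN1A, the cyclin-dependent kinase inhibitor p21, read 135.8, 142.2 and 115.4.

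Death receptor and metabolic targets were also above the filter. FAS, the receptor of FAS ligand, read 357.6, 292.7 and 285.6. TRIAP1, a mitochondrial survival factor, read 401.4, 324.8 and 457.5, and TIGAR, a brake on glycolysis, 387.7, 156.0 and 365.7. TIGAR, MDM4, TRIAP1, TNFRSF10B and POLH were each lowest of all 8 arrays on untreated replicate 2, 5 of 25 members beside 25.1% of all genes tested. TP53I3, a quinone oxidoreductase, read 200.2, 156.1 and 238.5, and SESN1, a sestrin that restrains mTORC1, 86.0, 73.3 and 78.8. The secreted THBS1, thrombospondin 1, read 1508, 1026 and 696.3.

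In 4 of the 29 members the mean log2 signal over all arrays did not exceed the median of all probe sets, the filter set for testing, which 12063 of 19775 genes passed. GDF15, a stress cytokine, read 2.17, 53 and 3.00 on untreated replicates 1, 2 and 3, then 7.98, 56.2 and 1.31 at 6 h, and 5.23 and 4.62 at 12 h. In this brightest set the signal was above 10 on the replicate 2 arrays and on no other. Dimmer GDF15 sets read 15.5 on untreated replicate 1 and 17.1 on 12 h replicate 1. The ectodysplasin receptor EDA2R, read as 4.98, 61.8 and 2.425, and SPATA18, a factor of mitochondrial quality control, at 4.39, 118 and 6.41, were highest on untreated replicate 2. Few dim signals were recorded on both arrays of that number: 0.0623% (untreated) and 0.0714% (6 h) fell at or under the 10th percentile of all values, against 6.26% to 20.8% elsewhere. Its part in these levels was not tested. The brightest set of TP73, the gene of p73, went the other way: 32.2, 6.26 and 26.3 untreated, 25.1, 7.70 and 18.9 at 6 h, 26.0 and 9.715 at 12 h. Its 2 lowest arrays were those of replicate 2, and its 3 groups overlapped. A dimmer TP73 set read 48.8 on untreated replicate 2, its highest array, and 9.21 on 6 h replicate 2.

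**Figure D1:**
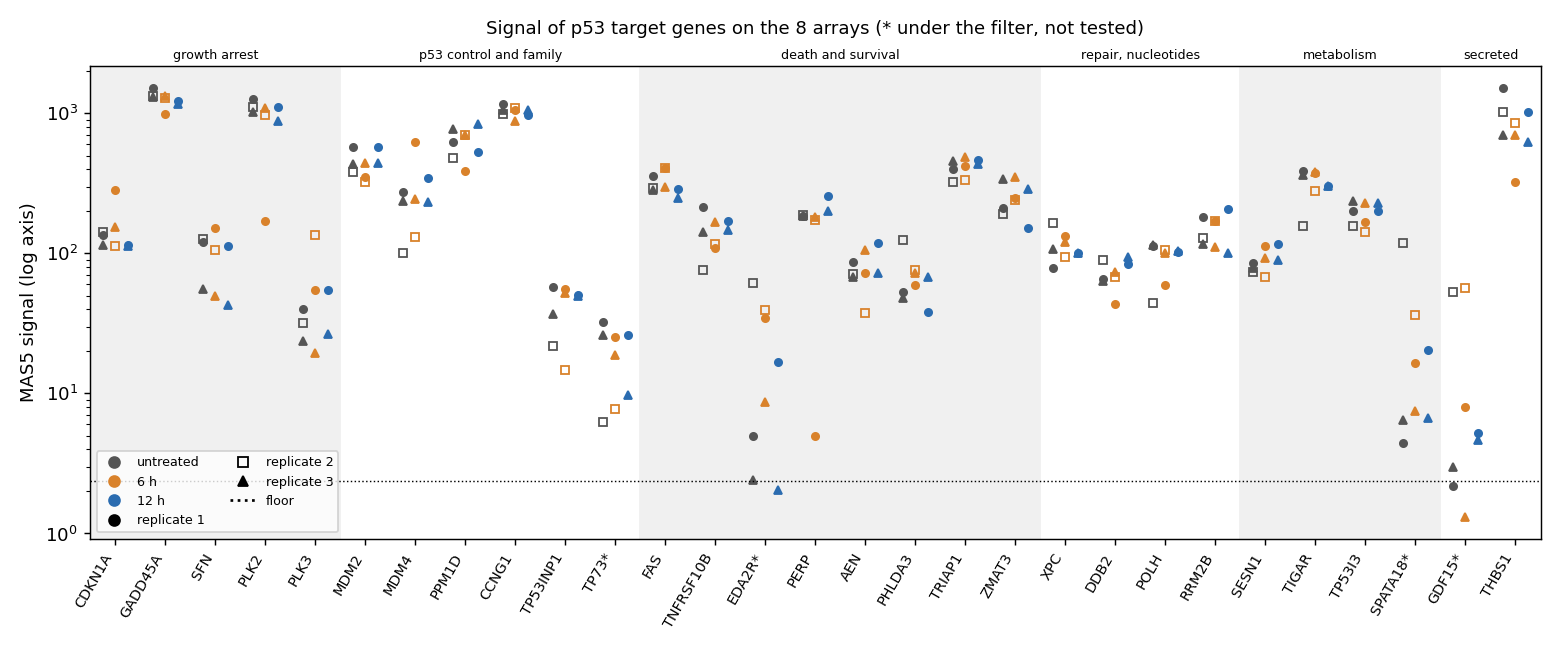
MAS5 signal (log axis) of the brightest probe set of 29 p53 target genes on each of 8 arrays, with untreated, 6 h and 12 h arrays side by side; point shapes give the replicate number, the dotted line is the floor of 2.385 and an asterisk marks the 4 genes not tested. Groups mostly overlap, and on 6 h replicate 1 PERP is at 4.94 and PLK2 at 169.5, far under their other arrays.

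The 25 members left were tested with all 12063 genes above the filter, in a limma fit with Benjamini-Hochberg adjustment. The 6 h arrays were first set against the untreated ones. No member passed, in either direction (0% of all genes passed higher and 0% lower, smallest adjusted p 0.9999), and 1 member, THBS1, had an unadjusted p under 0.05, as did 0.655% of all genes. With replicates as blocks MDM4 was the 1 member under 0.05, beside 4.09% of all genes. Of the 25, 12 lay above 0 (53% of all genes did) and 13 below, with a median log2 difference of -0.037 against 0.022 over all genes. By role, 2 of 5 growth arrest genes, 1 of 5 genes of p53 control, 4 of 7 of death and survival, 3 of 4 of repair and nucleotide supply and 2 of 3 of metabolism lay above 0.

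THBS1 read 323.4, 859.3 and 698.8 on 6 h replicates 1, 2 and 3, against 1508, 1026 and 696.3 untreated. Replicate 1 was far under every other array, and the groups overlapped. The log2 difference was -0.82 ± 0.38 (SE), with a limma adjusted p of 0.9999. PLK2 read 169.5, 965.6 and 1088 at 6 h, with replicate 1 again by itself, and differed by -0.995 ± 0.53 (SE). PERP, a desmosomal membrane protein that p53 raises in apoptosis, read 4.94, 173.9 and 183.2 at 6 h against 185.5, 187.6 and 186.3 untreated. Its groups did not overlap, as for 1.51% of all genes in that direction, and PERP was the 1 member of which this held. No member's 6 h arrays all lay above its untreated arrays, against 2.03% of all genes. Its difference was -1.79 ± 0.99 (SE).

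CDKN1A read 283.5, 113.2 and 153.3 at 6 h, and the difference of 0.38 ± 0.34 (SE) was positive in 2 of 3 same-numbered pairs. MDM4 read 621.3, 131.8 and 243.9, above its same-numbered untreated array in all 3 pairs, by 1.19, 0.38 and 0.05 on the log2 scale. PLK3, a relative of PLK2, read 54.9, 136.1 and 19.6 against 40.1, 31.7 and 23.7, highest on 6 h replicate 2. MDM2 read 350.3, 324.8 and 445.5 and differed by -0.30 ± 0.26 (SE). GADD45A read 981.7, 1277.8 and 1340.5 and differed by -0.22 ± 0.22 (SE). FAS read 407.7, 407.2 and 296.2, a difference of 0.24 ± 0.25, and was above its partner in all 3 pairs, as were MDM4, TRIAP1 and ZMAT3. These 4 of 25 members stand beside 13.6% of all genes, and the 2 that were lower in all 3 pairs, PERP and TP53I3, beside 10.4%. The metabolic genes SESN1 (112.1, 68.0 and 93.3 at 6 h) and TP53I3 (166.8, 142.5 and 229.5) differed by 0.17 ± 0.33 and -0.15 ± 0.29 (SE).

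Of the largest 6 h differences, those of PERP, PLK2 and PLK3 each rested on a single array, and that of THBS1 did so in part. On 6 h replicate 1, PERP and PLK2 were more than 2-fold under every other array, as were 2.91% of all genes, the highest such share of the 8 arrays (0.506% to 1.53% on the others). Without that array, and with no replicate block, the 6 h differences were -0.063 ± 0.27 for PERP, -0.13 ± 0.25 for PLK2 and -0.40 ± 0.34 for THBS1. They were 0.012 ± 0.31 for CDKN1A and -0.057 ± 0.43 for MDM4. Untreated replicate 1 stayed in these fits, and MDM4 was higher in both remaining pairs, by 0.38 and 0.05. PLK3, at 0.76 ± 0.69 (SE), kept 0.73 without 6 h replicate 1 but stood at 0.075 without 6 h replicate 2, where it was more than 2-fold above every other array, as were 1.57% of all genes. On 12 h replicate 1, the array with the highest ACTB ratio, the brightest sets of PERP, PLK2 and THBS1 read 257.8, 1109 and 1019. A dimmer THBS1 set read 130.2 there and 42.2 on 6 h replicate 1, its lowest arrays. Whether RNA quality had a part in these values was not tested. A second PERP probe set above the filter read 31.4 on 6 h replicate 1 but also 33.4 on untreated replicate 2. Of 5 THBS1 probe sets above the filter, 4 were lowest on 6 h replicate 1 and the remaining set was not.

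**Figure D2:**
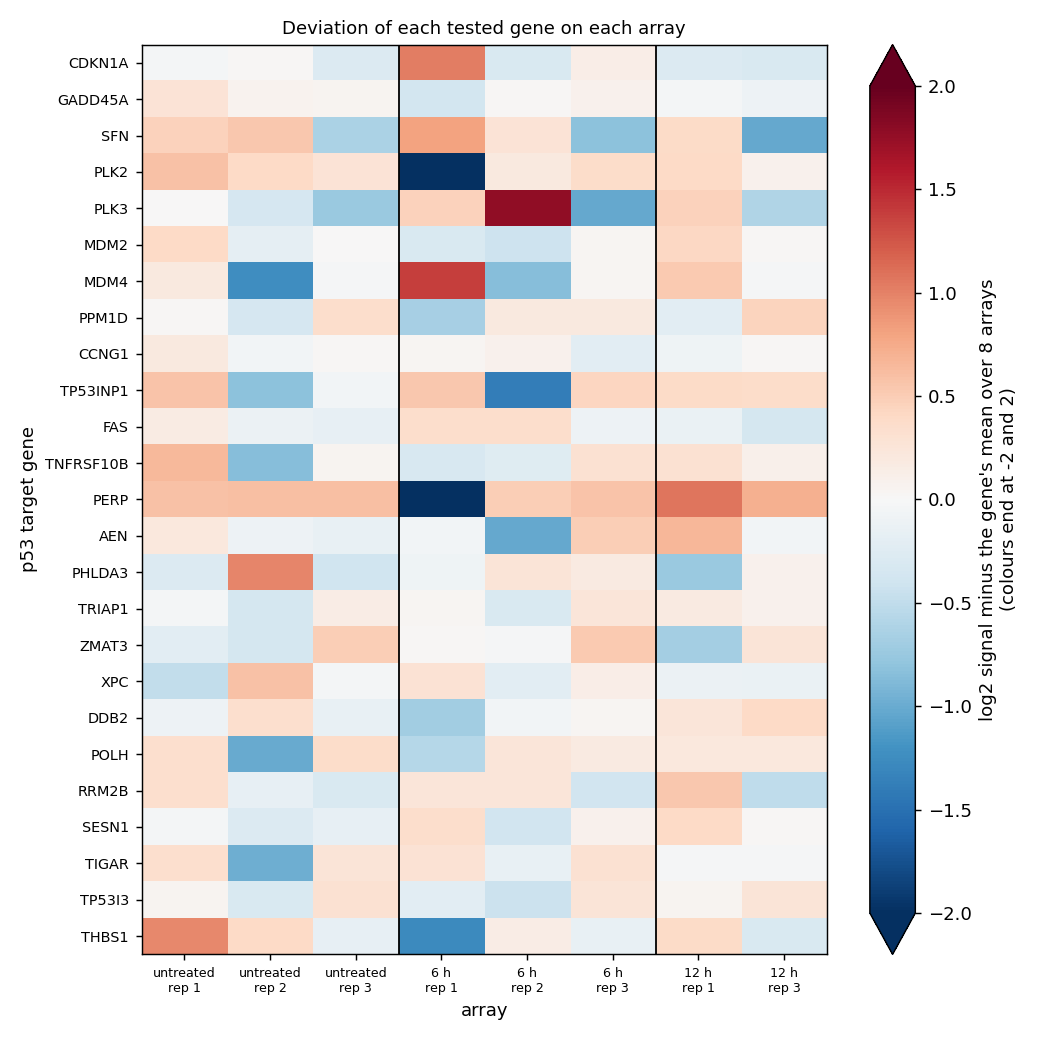
Log2 signal of the 25 tested p53 target genes minus each gene's mean over the 8 arrays, by array, with colours ending at -2 and 2. The 6 h replicate 1 column holds the lowest values, at PERP and PLK2, and the highest CDKN1A and MDM4 values.

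The 12 h arrays were then set against the untreated ones. No member passed (0% of all genes higher and 0% lower), and 0 members had an unadjusted p under 0.05, against 0.613% of all genes (2.17% with replicates as blocks, and again 0 members). In same-numbered pairs, 6 members were higher in both (34% of all genes) and 10 lower in both (25%). Of the 25, 15 lay above 0 (59.9% of all genes did), with a median log2 difference of 0.107 against 0.083 over all genes. Growth arrest genes lay below 0 in 4 of 5 cases, genes of p53 control above 0 in 4 of 5, of death and survival in 4 of 7, of repair in 3 of 4 and of metabolism in 3 of 3. Centring each array on its median took the median of all genes from 0.083 to 0.66 at 12 h and put all 25 members above 0, so directions are stated for the deposited scale. The members' median stood 0.024 above that of all genes with and without centring. It stood -0.035 from it with replicates as blocks, where 13 of 25 members lay above 0, and -0.010 after quantile normalization. With blocks TIGAR and TP53I3 turned to -0.18 and -0.018, which left SESN1 as the metabolic gene above 0.

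CDKN1A read 115.25 and 112.3 on 12 h replicates 1 and 3, just under the lowest untreated array at 115.4. GADD45A read 1231 and 1175, under the lowest untreated array at 1318. Both 12 h arrays of these 2 members lay under all untreated arrays, as for 4.89% of all genes. Their differences were -0.20 ± 0.38 and -0.205 ± 0.24 (SE), and 0.38 for each after centring. In the other direction SESN1 read 116.2 and 89.7, above the highest untreated array at 86.0, and PERP 257.8 and 202.4, above 187.6. These 2 members stand beside 9.6% of all genes. SESN1 differed by 0.37 ± 0.37 and PERP by 0.29 ± 1.11 (SE; limma adjusted p = 0.9999 for each). The SE uses a spread shared by all 8 arrays, among them 6 h replicate 1, where PERP read 4.94. For PERP, averaging all 5 of its probe sets turned the difference to -0.435. Only 2 of them were above the filter, at 0.29 and -0.16.

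Members of the p53 feedback loop overlapped between groups at 12 h. MDM2 read 579.1 and 441.7, a difference of 0.15 ± 0.29 (SE), and 0.021 and 0.016 within its pairs. Averaging all 10 of its probe sets gave -0.78, but only 6 of them were above the filter. MDM4 read 344.3 and 234.0 and had the smallest unadjusted p of the members, 0.302. Its difference was 0.61 ± 0.56, but 0.12 with replicates as blocks. It was -0.13 with all 6 MDM4 probe sets averaged, of which 5 were above the filter. Its lowest untreated array, replicate 2, has no 12 h partner. FAS read 290.3 and 248.8 and TP53I3 200.4 and 230.7, differing by -0.21 ± 0.28 and 0.14 ± 0.32. THBS1 read 1019 and 627, PHLDA3, an inhibitor of AKT signalling, 38.0 and 67.8, and SFN, the 14-3-3 sigma checkpoint protein, 113.7 and 42.9. Each of these 3 genes overlapped its untreated values, with differences of -0.36 ± 0.42, -0.425 ± 0.51 and -0.44 ± 0.57.

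On the deposited scale the intervals bound what a rise could have been. After centring the 12 h differences were higher, 0.38 for CDKN1A and 0.73 for MDM2, and the limits given here do not hold for that scale. At 12 h the 95% interval of the difference lay below a 2-fold rise for 15 of 25 members, against 54% of all genes, and at 6 h for 19 of 25, against 63.8%. With replicates as blocks these became 19 (70.8% of all genes) and 22 (78%). Between 12 h and 6 h the counts were 14 (56.3%) and, with blocks, 17 (71.9%). A 2-fold fall lay outside the interval for 18 members at 6 h (65.2% of all genes), 17 at 12 h (61.8%) and 16 between 12 h and 6 h (61.3%). At 12 h the interval ran from -1.03 to 0.63 for CDKN1A, from -0.48 to 0.77 for MDM2, from -0.73 to 0.32 for GADD45A and from -0.82 to 0.40 for FAS. For PERP, PLK3 and TP53INP1 it reached 2.69, 1.95 and 2.02, so a 2-fold rise lay within the interval of each. Each interval uses a spread shared by all 8 arrays. For PERP this took in 6 h replicate 1 (4.94) and for PLK3 6 h replicate 2 (136.1), which are in neither group compared. TP53INP1, a promoter of stress-induced death and autophagy, read 50.3 and 49.8 at 12 h against 57.8, 21.9 and 37.1 untreated, inside the untreated range. The median SE over members was 0.346 at 6 h and 0.386 at 12 h, near the 0.352 and 0.393 of all genes.

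**Figure D3:**
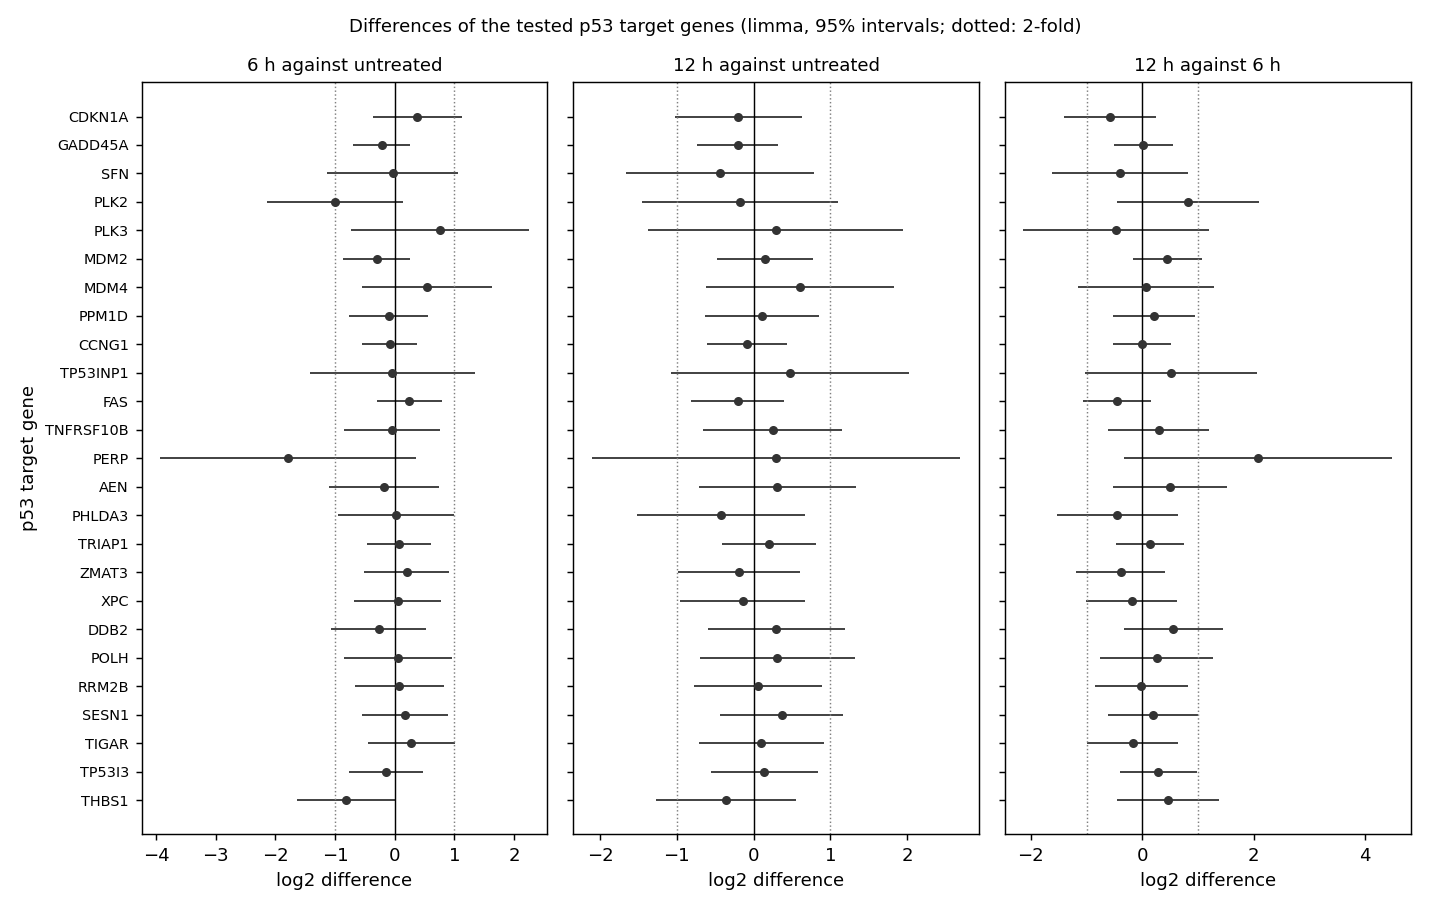
Log2 difference (points) with 95% interval from limma (lines) for the 25 tested p53 target genes in each of 3 comparisons, with dotted lines at 2-fold and an x scale of its own in each panel. All intervals but that of THBS1 at 6 h include 0, PERP has the widest, and the intervals of CCNG1, GADD45A, MDM2 and FAS at 6 h and 12 h against untreated stay inside a 2-fold rise.

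The third comparison set 12 h directly against 6 h. No member passed (0% of all genes higher and 0% lower), and 0 had an unadjusted p under 0.05, against 0.73% of all genes. With replicates as blocks ZMAT3 was the 1 member under 0.05, beside 2.46% of all genes. The median log2 difference was 0.134 against 0.061 over all genes, with 15 of 25 above 0 (57.2% of all genes). PERP and DDB2, the damaged-DNA binding protein of nucleotide excision repair, were higher on both 12 h arrays than on any 6 h array, beside 7.1% of all genes. DDB2 read 83.5 and 93.9 at 12 h against 43.6, 68.2 and 73.0 at 6 h, a difference of 0.56 ± 0.41 (SE), or 0.33 without 6 h replicate 1. FAS was lower on both 12 h arrays than on any 6 h array, beside 4.5% of all genes, and differed by -0.45 ± 0.28, but by 0.14 after centring. CDKN1A differed by -0.58 ± 0.38, by -0.21 ± 0.34 without 6 h replicate 1 and by 0.006 after centring. PERP and PLK2 differed by 2.08 ± 1.11 and 0.82 ± 0.59, but by 0.36 ± 0.30 and -0.047 ± 0.27 without that array. MDM2 differed by 0.45 ± 0.29 (SE), and by -0.28 with all 10 of its probe sets averaged, those under the filter included. The comparisons share arrays, so their values are not independent of each other.

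The members with a decamer in their window had 12 h differences smaller than or near their SE, which was not particular to them. CDKN1A and MDM2, whose windows held none, differed by -0.20 ± 0.38 and 0.15 ± 0.29 (SE). The smallest unadjusted limma p of the 25 members at 12 h was 0.302. AEN, an apoptosis-enhancing nuclease, DDB2 and SESN1 differed from untreated by 0.31 ± 0.48, 0.29 ± 0.41 and 0.37 ± 0.37 (SE), and FAS and PLK2 by -0.21 ± 0.28 and -0.18 ± 0.59. The signs of AEN, PLK2 and FAS turned with the setting: AEN stood at -0.046 without 12 h replicate 1, PLK2 at 0.012 with replicates as blocks, and FAS and PLK2 at 0.37 and 0.40 after centring. AEN read 119.4 and 72.7 at 12 h against 87.4, 70.7 and 68.4 untreated. At 6 h it read 73.0, 37.3 and 106.1, and its groups overlapped in each comparison.

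Different probe sets of the same gene often pointed different ways. Of the 82 probe sets 55 were above the filter, and 11 members had 2 or more of them. All probe sets of a member had the same sign in 4 of these 11 genes at 6 h and in 5 at 12 h, against 44.8% and 39% of 5965 genes with several probe sets. For THBS1 all 5 lay below 0 at 12 h, from -1.27 to -0.36, and 4 of 5 at 6 h. All 4 FAS probe sets lay below 0 at 12 h, from -0.53 to -0.17. Of 6 MDM2 probe sets, 5 lay below 0 at 6 h, from -0.48 to -0.28, and the last at 0.004. At 12 h 5 of 6 were again below 0, with the brightest, at 0.15, as the exception and the farthest at -2.33, a set that read 1.68 on 12 h replicate 1 and 28.2 on replicate 3. POLH, the translesion polymerase eta, had 6 probe sets, 3 on either side of 0 in both comparisons with untreated. The MDM4 sets split 3 above and 2 below in both, and ZMAT3, an RNA-binding splicing regulator, 4 to 1 at 6 h and 3 to 2 at 12 h. The brightest sets of MDM4 and POLH were lowest on untreated replicate 2, where 2 dimmer MDM4 sets were at their highest. Whether the sets read different transcripts was not tested.

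**Figure D4:**
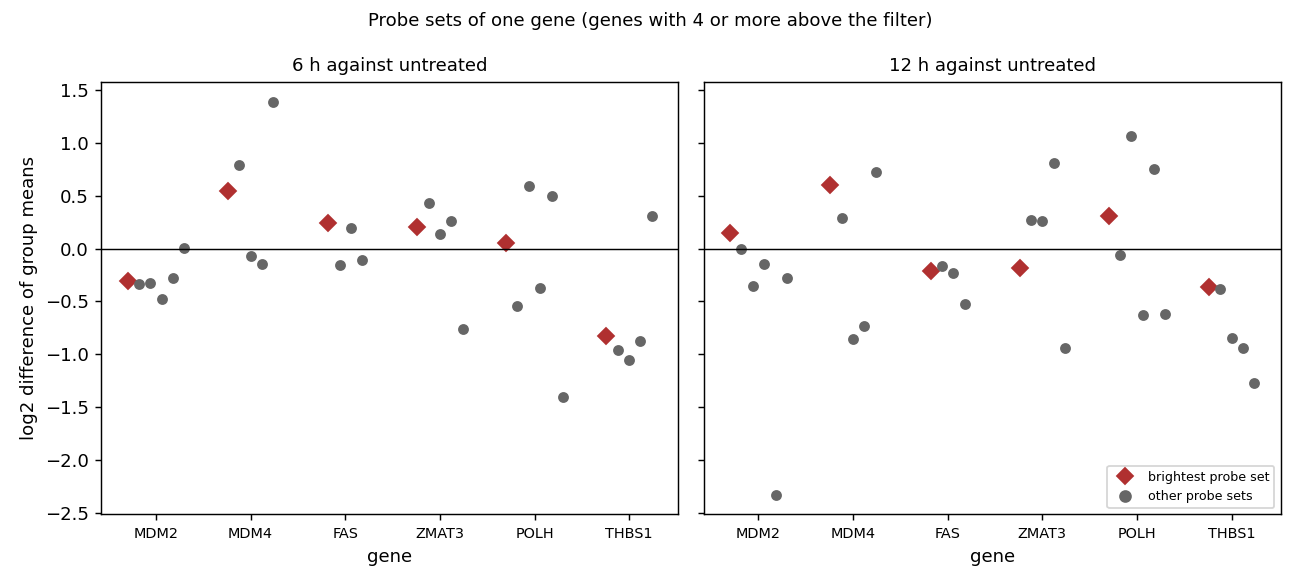
Log2 difference of group means for every probe set above the filter, for the 6 p53 target genes with 4 or more, at 6 h (left) and 12 h (right) against untreated; diamonds are the brightest set of each gene. THBS1 and FAS sets lie together below 0 at 12 h, and those of POLH, MDM4 and ZMAT3 lie on both sides of 0.

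The wider p53 pathway was read from lists written from textbook knowledge. Of 54 tested other p53 target genes, 0 passed in any comparison, with medians of -0.023 at 6 h and 0.047 at 12 h against 0.022 and 0.083 over all genes. NOTCH1, a receptor of cell fate, had the smallest p of these at 6 h, at 67.1 ± 25.2 (SD, n = 3) against 35.3 ± 9.36 (n = 3), and CDIP1, a mediator of p53-dependent apoptosis, stood at 95.3 ± 32.6 against 137 ± 12.2. At 12 h these were PRKAB1, an AMPK subunit, at 132 ± 27.9 (n = 2) against 89.7 ± 3.75 (n = 3), and PLXNB2, a plexin, at 269 ± 16.8 against 189 ± 59.9. Between 12 h and 6 h they were SAC3D1, at 407 ± 3.82 (n = 2) against 259 ± 113 (n = 3), and STEAP3, a metalloreductase, at 608 ± 137 against 397 ± 220. Of 20 p53 regulators and cofactors 0 passed, with medians of -0.035 and 0.109. TOPORS, a ubiquitin and SUMO ligase that acts on p53, was at 195 ± 70.3 at 6 h and 198 ± 61.1 at 12 h against 282 ± 34.1 untreated. The acetyltransferase EP300 was at 134 ± 51.9 at 6 h against 90.3 ± 19.7, and USP7, the deubiquitinase of MDM2, at 748 ± 155 at 12 h against 595 ± 120 untreated and 556 ± 152 at 6 h. HIPK2, a p53 kinase, was at 1129 ± 193 at 12 h against 882 ± 354 at 6 h. None of these passed the adjusted threshold.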

How the data were processed

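RNA from 8 Saos-2 samples was hybridised as biotin-labelled cRNA to Affymetrix arrays, as the labels' protocols state. The authors deposited 1 linear intensity per probe set and array, and the submitters' processing notes name MAS5 for it. Its version was not given in the sources used here. The trimmed mean signal was 100.01 on every array, and the number of arrays limits the precision. The members, gene lists, named-gene rule and alternatives were chosen with earlier results of these data known.

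Control probe sets (62 of 54675) were left out. A gene was represented by the brightest of its probe sets that carry 1 symbol. Lower signals were raised to the 10th percentile (2.385) ahead of the log2 step, and 12063 genes whose mean log2 signal exceeded the median of all probe sets (4.216) were tested. All 3 groups entered 1 fit in limma 3.58.1 (R 4.3.3; lmFit, eBayes with a variance trend), two-sided, with Benjamini-Hochberg adjustment across those genes and a threshold of 0.05. The fit was tested on simulated data, with detection required only at a spread far under that of these arrays. That test does not show what could be detected here. Array values are given for the members with the 6 smallest p of a comparison, for members whose groups do not overlap and for CDKN1A, MDM2, GADD45A, FAS, GDF15, TP53I3, SESN1 and TP73. The other 2 lists give the 2 smallest p each. CCNG1, PPM1D, TRIAP1, TIGAR, TP53INP1, AEN, EDA2R, SPATA18 and the genes described for their several probe sets were added after their values were seen. Same-numbered arrays deviated together (r across genes 0.108 to 0.637 in 7 pairs, -0.576 to 0.333 in 14 others), which was taken as pairing. The replicate 1 pairs had r of 0.108, 0.159 and 0.163, under the highest of the others, so pairing is not shown for replicate 1. Deviations were taken from group means and cancel within a group, so positive r in some pairs is offset by negative r in others. The 2 arrays at 12 h deviate by equal and opposite amounts. The highest r of the others, 0.333 for untreated replicate 2 with 12 h replicate 1, thus mirrors -0.333 with 12 h replicate 3. The pairs are not separate evidence. Figures were drawn with matplotlib 3.10.9.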

Additional observations from a re-analysis of the deposited data

How the results depend on the processing

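Each comparison was repeated with replicates as blocks, with quantile normalization or median centring, with a floor at a signal of 1, a pseudocount of 32, no filter or a stricter filter, with averaged or single probe sets, without the variance trend, with the compared groups only, with array weights, without both replicate 2 arrays and without each array in turn. In all of these 0 genes and 0 members passed the adjusted threshold, with the replicate block as well (0 members, smallest adjusted p over all genes 0.831 at 6 h, 0.9998 at 12 h and 0.972 between them), so the block changed no call. Genes with an unadjusted p under 0.05 numbered 45 to 581 at 6 h, 34 to 1087 at 12 h and 33 to 599 between 12 h and 6 h over these repeats. The lowest adjusted p over all genes in any repeat was 0.2025, at 12 h with array weights and the block, where the lowest of a member was 0.567. Signs of single members were less steady. They were followed over the repeats in which a member was tested, leaving out the fit of single probe sets. The sign was kept by 11 of 25 members at 6 h and by 3 at 12 h (DDB2, SESN1 and TRIAP1). Between 12 h and 6 h it was kept by 4 (DDB2, PERP, THBS1 and TP53I3). Median centring put all 25 members above 0 in both comparisons with 12 h arrays, so a member below 0 there could not keep its sign. The counts of 3 and 4 are thus no measure of steadiness beside the 11 at 6 h. Of the 11 at 6 h, FAS, MDM2, THBS1 and ZMAT3 had probe sets above the filter on both sides of 0. The members' median ran from -0.143 to 0.0925 at 6 h, from -0.143 to 0.688 at 12 h and from -0.049 to 0.72 between them, the highest 12 h values under median centring. The small number of arrays, 2 at 12 h, limits what could be detected.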
